A study of Zea mays with 16 samples.

Results

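The drought response of kernels of the maize (Zea mays) line RIL68 was followed on 4 of the 16 arrays of a field study. The 4 arrays are those whose titles name the second susceptible line. On each one, kernels from water-stressed plants were set against kernels from well watered plants of the same line. RIL68 is a recombinant inbred line, a fixed line bred by repeated selfing from a cross, and the submitters describe it as drought susceptible. The other 3 lines, each with 4 arrays, were RIL66 (susceptible) and RIL60 and RIL78 (tolerant). All plants were field grown in Southern Italy and well irrigated until the treatment began, with 2 randomised blocks for each water level. From 3 weeks before flowering, soil moisture on a dry weight basis was held near 30% in the well watered plots and near 16% in the stressed plots. RNA was extracted from pools of 6 to 9 kernels taken from 3 ears at 10 days after pollination, and the poly(A) fraction was labelled. Stressed RNA carried Cy5 on replicates 1 and 2 and Cy3 on replicates 3 and 4, and well watered RNA carried the other dye. The design text calls the 4 arrays of a line replicates of the hybridisation, with no word on how many RNA extracts stood behind them. If they shared extracts, the p-values cover technical spread alone.

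A maize kernel in the second week after pollination is mostly endosperm, the starchy tissue that feeds the embryo. At that stage it passes from cell division to the storage of starch and protein, and it depends on sucrose delivered by the mother plant through the transfer cells at the kernel base. Water shortage around flowering is known to lower this supply and to cause kernels to abort, which makes kernel gene expression a trait of interest in lines that differ in drought tolerance. The array carried 1000 probes, each printed 2 times. No table used here links a probe ID to a gene. Results are therefore given by probe ID and without gene function, and marker genes of kernel tissues could not be looked up. In these pooled kernels, fewer cells of a type and less RNA per cell cannot be told apart.

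The 4 arrays were of unequal quality. The share of probe spots above their local background in at least 1 channel was 38.3%, 51.4%, 42.8% and 60.5% on replicates 1 to 4. Duplicate spots of a probe correlated at 0.234, 0.717, 0.299 and 0.334 across probes. Replicate 3 stood apart by its median Cy3 background of 2273 intensity units, where the other arrays had 505.9 to 796.3, and by the widest spread of log2 ratios, with an SD of 0.582 against 0.266 to 0.351. On replicate 3, 35 probes were at least 2-fold higher under stress and 51 at least 2-fold lower, where the other arrays had 2 to 6 and 1 to 3. The file header of replicate 2 bears another day than those of replicates 1, 3 and 4, and it differed from them at 2 probes by more than 3 log2 units. Results are therefore also given without these arrays where that changes them. No header day held arrays of RIL68 together with RIL60 or RIL78, so for these comparisons day and line cannot be told apart.

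Under water stress 2 probes rose and 5 fell in RIL68 kernels. Values are log2 ratios of stress over well watered, from 1 limma fit over the 16 arrays with a coefficient for each line and a dye term, and a probe was called where the Benjamini-Hochberg adjusted p was under 0.05. The 7 calls among 1000 probes tested are 0.7%. At an unadjusted p under 0.05 there were 126 probes, 45 higher and 81 lower. For each of the 7 called probes, all 8 spots on the 4 arrays lay on 1 side of 0. Over all probes measured on 4 arrays, 185 of 999 had 1 sign on every array, 83 above and 102 below 0. The same count was 207 in RIL60, 207 in RIL78 and 230 in RIL66.

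The steadiest rise was that of probe a116pe0973. Its log2 ratios on replicates 1 to 4 were 1.00, 0.85, 1.17 and 1.31. Stressed kernels were thus above well watered kernels on all 4 arrays, and the arrays with stress in Cy3 lay above those with stress in Cy5. The estimate was 1.08 (SE 0.175, limma's adjusted p = 0.00282), which is 2.12-fold higher, with an SD of 0.203 between arrays. Its normalised level was 12.33 log2 units in stressed and 11.24 in well watered kernels, and both channels were above background on 4 of 4 arrays. Leaving out any 1 array of RIL68 kept the estimate between 1.02 and 1.15 and the limma adjusted p between 0.0127 and 0.0443. It was called in 32 of the 34 settings run, the main setting included, and it alone was called when the 4 RIL68 arrays were fitted by themselves (limma's adjusted p = 0.016). The settings are not independent of each other. Those without an array of another line kept the RIL68 estimates of the called probes and changed only their SE and p-values. A setting limited to bright probes, described below, held none of the called probes. Counts of settings are thus a description and not a measure of support.

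The steadiest fall was that of probe a116pe0599. Its log2 ratios were -0.93, -0.65, -0.85 and -0.78, a range that the dye orientation did not divide. The estimate was -0.80 (SE 0.129, limma's adjusted p = 0.00282), 1.74-fold lower under stress, with an SD of 0.118. The level was 12.04 in stressed and 12.84 in well watered kernels. The mean ratio was -0.79 with stress in Cy5 and -0.82 with stress in Cy3. Without any 1 array of RIL68 it stayed between -0.84 and -0.74, with limma's adjusted p from 0.0127 to 0.0457, and it was called in 31 of 34 settings. The authors' deposited table of log2 ratios has it below 0 on every array, from -0.28 to -0.87 over the 8 spots.

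The other 5 calls had the same sign on every array but sizes that differed between them. Probe a116pe0945 rose, with ratios of 1.48, 1.00, 0.55 and 0.64 (estimate 0.92, SE 0.202, SD 0.425, limma's adjusted p = 0.0405). Here the arrays with stress in Cy5 read higher than those with stress in Cy3. This call did not hold when any 1 array of RIL68 was left out, with limma's adjusted p at 0.171, 0.0601, 0.18 and 0.123 without replicates 1 to 4 and estimates from 0.82 to 1.00. Probe a116pe0565 fell, with ratios of -0.63, -0.32, -2.14 and -0.77 (estimate -0.97, SE 0.183, SD 0.807, limma's adjusted p = 0.0136). Replicate 3 lay far below the other 3 arrays and the stress signal exceeded background on 3 of the 4. In the authors' deposited ratios, whose scale is unknown, its replicate 3 spots read -0.46 and -0.62. The estimate from these ratios was -0.47 and did not pass (limma's adjusted p = 0.0502).

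Probes a116pe0393, a116pe0306 and a116pe0166 fell in the same way, each lowest on replicate 3. Probe a116pe0393 read -0.43, -0.51, -1.04 and -0.63 (estimate -0.66, SE 0.144, SD 0.270, limma's adjusted p = 0.0405). Probe a116pe0306 read -0.44, -0.22, -1.09 and -0.60 (estimate -0.59, SE 0.131, SD 0.371, limma's adjusted p = 0.0405). Its signal was above background on 3 arrays only, in either condition. On replicate 3, where its ratio was largest, its levels were lowest, at 7.89 under stress and 8.98 well watered. Probe a116pe0166 read -0.20, -0.50, -1.11 and -0.65 (estimate -0.62, SE 0.140, SD 0.381, limma's adjusted p = 0.0442). These 3 calls are near the threshold. With the deposited ratios their estimates were -0.39, -0.28 and -0.41, and none passed (limma's adjusted p = 0.15, 0.103 and 0.0522). On average over the spots, replicate 4 and not replicate 3 was lowest there for each of them. The slope of the deposited ratios on those computed here was 0.456 on replicate 3 and 0.816 on replicate 4. The arrays are thus not on 1 scale there, and their order cannot be read as a difference in response. Without replicate 3 limma called 3 probes, of which a116pe0973 and a116pe0599 were among the 7, while the other 5 did not pass. Without replicate 1 it also called 3, again with those 2 probes among them. Over the 34 settings a116pe0565 was called in 25, a116pe0945 in 19, a116pe0393 in 18, a116pe0306 in 17 and a116pe0166 in 12.

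**Figure D1:**
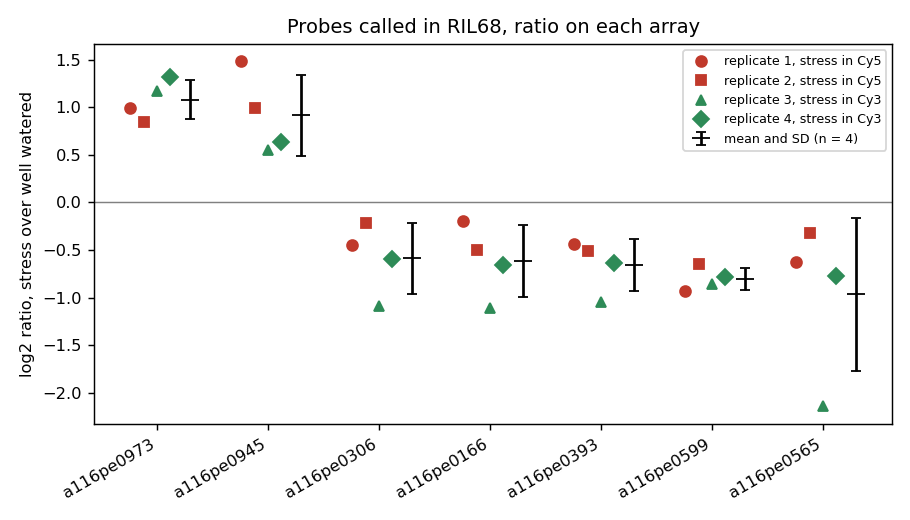
Log2 ratio of stress over well watered kernels (vertical axis) of the 7 called probes on each of the 4 RIL68 arrays, with colour for the dye of the stressed sample and a bar for the mean and SD (n = 4 arrays). Probes a116pe0973 and a116pe0599 lie close together over the arrays, whereas replicate 3 is the lowest point of a116pe0306, a116pe0166, a116pe0393 and a116pe0565.

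The response was compared between dye orientations, which are the arrays with stress in Cy5 and the arrays with stress in Cy3. Over the 1000 probes the mean ratios of the orientations correlated at 0.0381 (Pearson) and 0.0335 (Spearman), across probes that are not independent. One sign in both orientations was found for 519 probes and opposite signs for 481. The typical size also differed, with a median absolute mean of 0.107 in the Cy5 orientation and 0.245 in the Cy3 orientation, which holds replicate 3. Only 4 probes had a mean beyond 0.5 of 1 sign in both orientations. These were the called probes a116pe0599, a116pe0973 and a116pe0945, and a116pe0362 at -0.61 and -0.88, which did not pass (limma's adjusted p = 0.248) and was named after its values were seen. All 7 called probes had 1 sign in both orientations, and 6 were larger in the Cy3 orientation.

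**Figure D2:**
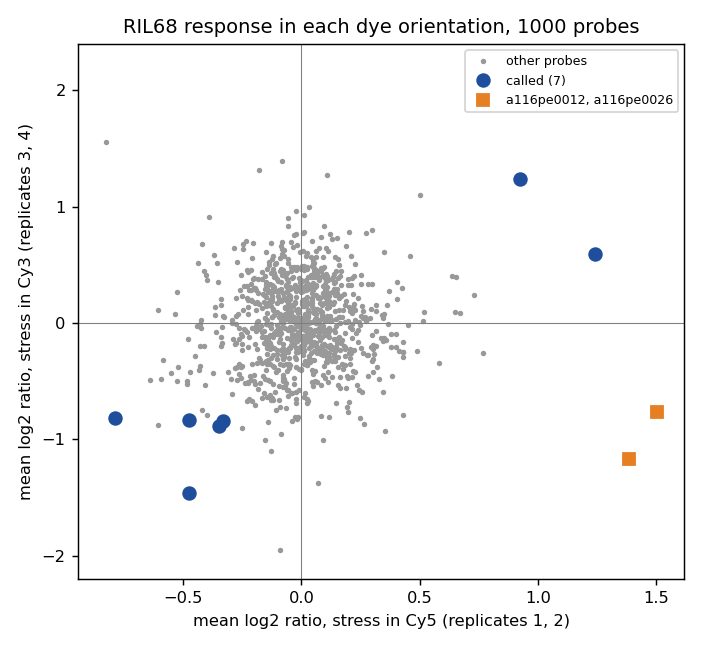
Mean log2 ratio of each of the 1000 probes in RIL68 with stress in Cy5 (horizontal axis, replicates 1 and 2) and with stress in Cy3 (vertical axis, replicates 3 and 4). The 7 called probes lie in the lower left and upper right, the other probes form a cloud with a correlation of 0.0381 over all probes, and a116pe0012 and a116pe0026 lie apart at the right because of replicate 2.

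Single arrays were also compared with each other, as a description across probes that share a slide and its depth of signal. Over all probes, arrays of the same orientation correlated at 0.211 (replicates 1 and 2) and 0.309 (replicates 3 and 4). Arrays of opposite orientation correlated between -0.0473 and 0.148. The mean over the 6 pairs was 0.111, where RIL60, RIL78 and RIL66 had 0.238, 0.18 and 0.43. Over the 172 probes above background in both conditions on all 4 arrays, replicates 1 and 4, of opposite orientation, correlated at 0.558, and replicates 3 and 4 at 0.564. Pairs with replicate 2 stayed between -0.08 and 0.165 in this set by Pearson's r and between 0.0828 and 0.57 by Spearman's rho.

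Calls were also counted by detection, with no test between the classes, beside 7 calls and 126 probes at an unadjusted p under 0.05 among all 1000. Of the 172 probes above background in both conditions on every array, 4 were called and 37 had an unadjusted p under 0.05, 12 higher and 25 lower. Of 135 probes above background in neither condition on any array, 0 were called and 10 had an unadjusted p under 0.05 in limma. The remaining 693 gave 3 calls. No probe was above background on 4 of 4 arrays in 1 condition and on 0 of 4 in the other.

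The array also carried 24 spots that the files name as rat controls. They were above background on 8, 3, 14 and 10 spots on replicates 1 to 4, and on replicate 3 their share of 58.3% was above the 42.8% of the probe spots. A probe was taken as brighter where the mean of its spots passed the median of the rat control spots by over 2 scaled median absolute deviations. Single rat control spots can lie above that cut. Probes brighter by this rule in both channels numbered 181, 490, 86 and 391 by array, and 76 on all 4 arrays. None of the 7 called probes was among the 76. These 76 are a small part of the 1000 probes tested, so this does not show that calls avoid bright probes. Whether they do was not tested. Each of the 7 was brighter than the rat controls on 3 arrays, except a116pe0306, which was brighter on 2. The 76 probes had a median estimate of 0.0841, and 14 had an unadjusted p under 0.05, 9 higher and 5 lower. With adjustment over the 76 alone, a setting chosen after seeing the data that held none of the 7, limma called 4 probes, all lower. They were, named after their values were seen, a116pe0623 at -0.45 (limma's adjusted p = 0.0148) and a116pe0559 at -0.51, a116pe0240 at -0.45 and a116pe0086 at -0.37 (each with a limma adjusted p of 0.023).

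Next to the calls stood probes of 1 sign on all 4 arrays that did not pass. The 8 with the lowest moderated statistics among the uncalled had estimates between -0.60 and -0.45, with limma's adjusted p from 0.0567 to 0.0908. Probe a116pe0623 read -0.50, -0.09, -0.71 and -0.50 (limma's adjusted p = 0.088). Probe a116pe0559 read -0.66, -0.40, -0.42 and -0.58 (limma's adjusted p = 0.0895), an even set with an SD of 0.125. Probe a116pe0996 read -0.09, -0.88, -0.62 and -0.43 (limma's adjusted p = 0.0567), with replicate 1 near 0. Of these 8, all but a116pe0829 and a116pe0148 were above background in both conditions on 4 of 4 arrays.

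The 8 highest among the uncalled had estimates between 0.37 and 0.80, with limma's adjusted p from 0.088 to 0.249. Several of them were close to background. For a116pe0972, a116pe0797 and a116pe0100 the well watered signal was above background on 0 of 4 arrays and the stress signal on 2, so their ratios of 0.80, 0.55 and 0.49 rest on signals that background can set. For a116pe0794 neither condition was above background on any array. Probe a116pe0207 was above background throughout and read 1.12, 0.19, 0.31 and 0.48 (estimate 0.52, limma's adjusted p = 0.155), highest on replicate 1. Probe a116pe0034 read 0.29, 0.16, 0.73 and 0.29 (estimate 0.37, limma's adjusted p = 0.249).

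At probes a116pe0012 and a116pe0026 the arrays of RIL68 contradicted each other. Probe a116pe0012 read -0.85, 3.62, -1.49 and -0.86 on replicates 1 to 4. Probe a116pe0026 read -0.71, 3.71, -0.75 and -0.77. Both were thus lower under stress on 3 arrays and far higher on replicate 2. Duplicate spots agreed on that array, at 3.70 and 3.54 for a116pe0012 and at 3.64 and 3.79 for a116pe0026. Over all 4 arrays neither passed, with estimates of 0.11 (SE 0.454, limma's adjusted p = 0.962) and 0.37 (SE 0.482, adjusted p = 0.84).

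On replicate 2 the channels moved apart in both directions. The level of a116pe0012 in stressed kernels was 13.07, 15.34, 13.21 and 13.63 on replicates 1 to 4, and in well watered kernels 13.92, 11.72, 14.70 and 14.49. Replicate 2 thus held the highest stress level and the lowest well watered level of the 4 arrays. For a116pe0026 the stress levels were 12.62, 14.81, 12.36 and 12.30 and the well watered levels 13.33, 11.10, 13.12 and 13.07, with the same order. In the authors' deposited table both probes are blank on replicate 2, at both of their spots. On the other 15 arrays 0 of 30 values of either probe are blank there. On replicate 2 the deposited table has 31 blank values, and 8 spots of this array carried the authors' exclusion mark.

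Without replicate 2, which leaves the 3 arrays of 1 header day for this line, a116pe0012 passed as a fall. Its estimate was then -1.04 (SE 0.161, limma's adjusted p = 0.00394), 2.06-fold lower under stress. Probe a116pe0026 was at -0.76 (SE 0.269, limma's adjusted p = 0.242). With the authors' deposited table a116pe0012 fell by 0.81 on the log2 scale (limma's adjusted p = 0.00117), also without a value of replicate 2. In the other lines the estimates of a116pe0012 and a116pe0026 were -1.74 and -1.28 in RIL60, 0.14 and 0.55 in RIL78, and 4.67 and 5.50 in RIL66. The ratios on replicate 2 of RIL68 correlated at 0.386 with the mean of RIL66 over 1000 probes, and at -0.0254 over the 998 probes other than these 2. The cause of the reading on replicate 2 was not tested.

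**Figure D3:**
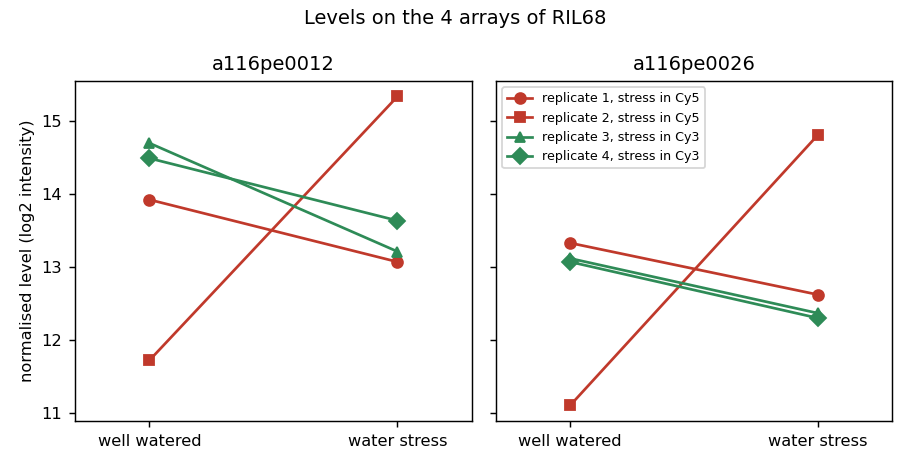
Normalised level in log2 intensity units (vertical axis) of a116pe0012 and a116pe0026 in well watered and stressed kernels, with a line joining the channels of each RIL68 array and colour for the dye of the stressed sample. Replicates 1, 3 and 4 slope down from well watered to stress and replicate 2 slopes up, from 11.72 to 15.34 and from 11.10 to 14.81.

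Leaving out replicate 2 changed other calls as well. Limma then called 8 probes, 3 higher and 5 lower, of which 4 were among the 7: a116pe0973 at 1.15, a116pe0599 at -0.84, a116pe0565 at -1.06 and a116pe0306 at -0.68. The other 4 were a116pe0012, a116pe0623 at -0.57, a116pe0797 at 0.75 and a116pe0207 at 0.73, with limma's adjusted p of 0.0474, 0.0264 and 0.0468 for the last 3. With replicates 2 and 3 both left out, a setting chosen after seeing the data, limma called 1 probe, a116pe0942 at 0.92 (adjusted p = 0.00904), which is not among the 7 and is named after its values were seen. It read 0.91, 0.36, -0.12 and 0.93 on replicates 1 to 4, so replicate 3 alone was below 0. In that fit, with 1 array of each dye orientation, a116pe0973 at 1.16 and a116pe0599 at -0.85 were as large as over 4 arrays but missed the threshold (limma's adjusted p = 0.0983 for both).

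The response of RIL68 was tested against the other lines as the difference between its coefficient and the mean of the other 3 lines. Such a difference can also pass where another line alone is extreme. It therefore cannot show that a response is particular to RIL68. Limma called 2 of 1000 probes (0.2%), both lower in RIL68, and 102 had an unadjusted p under 0.05. Neither probe was called as a change within RIL68. With no background correction neither difference passed, at -0.48 for a116pe0793 and -0.57 for a116pe0813 (limma's adjusted p = 0.0624 and 0.0526). The 7 probes called within RIL68 did not pass this test, with adjusted p-values from 0.0615 (a116pe0306) to 0.418 (a116pe0393).

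Probe a116pe0793 was below 0 in RIL68 and above 0 in RIL60. Its ratios in RIL68 were -0.54, -0.56, -0.28 and -0.58, and in RIL60 they were 1.01, 1.11, 0.72 and 0.78. These 2 lines did not overlap, but the probe was named by its difference between lines, so this adds no support. RIL78 and RIL66 lay around 0 with estimates of 0.05 and -0.03. The difference of RIL68 from the mean of the others was -0.80 (SE 0.148, limma's adjusted p = 0.0159), while the change within RIL68 was -0.49 (SE 0.128, limma's adjusted p = 0.088). The difference missed the threshold without replicate 1, 2 or 4 of RIL68, with adjusted p-values up to 0.0981 in limma and estimates between -0.87 and -0.76.

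Probe a116pe0813 was above 0 in the other lines and below it in RIL68. Its ratios in RIL68 were 0.01, -0.30, -1.14 and -0.57, with replicate 1 near 0. The estimates in RIL60, RIL78 and RIL66 were 0.71, 0.32 and 0.68, of which limma called those of RIL60 and RIL66. The difference was -1.07 (SE 0.193, limma's adjusted p = 0.0159), and the change within RIL68 was -0.50 (SE 0.167, limma's adjusted p = 0.195). Without replicate 3 of RIL68, or without replicate 4, the difference missed the threshold, with estimates between -1.23 and -0.87 over the 4 fits that left out an array and adjusted p-values up to 0.142. Without replicate 2 limma called 3 differences, a116pe0813 at -1.12 (adjusted p = 0.031), a116pe0012 at -2.06 (7.82e-07) and a116pe0026 at -2.35 (0.000153). For the last 2, RIL66 at 4.67 and 5.50 raised the mean of the other lines. RIL68, at -1.04 and -0.76 in that fit, lay between RIL60 (-1.74 and -1.28) and RIL78 (0.14 and 0.55).

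The 7 called probes took different courses in the other lines. Probe a116pe0973 had estimates of 1.57 in RIL60, 0.14 in RIL78 and -0.29 in RIL66, and a116pe0945 had 0.87, -0.02 and -0.21. Both were called in RIL60, where both conditions were above background on 4 of 4 arrays, and not in RIL78 or RIL66. For a116pe0973 the stress and well watered signals were above background on 2 and 1 arrays in RIL78 and on 2 and 3 in RIL66. For a116pe0945 these counts were 3 and 2 in RIL78 and 1 and 3 in RIL66. The estimates in RIL78 and RIL66 thus rest partly on signals near background and do not show a lack of response. Probe a116pe0599 had -0.42, -0.50 and 0.14, with a call in RIL78, and a116pe0393 had -0.03, -0.80 and -0.00, also with a call in RIL78. Probes a116pe0565, a116pe0306 and a116pe0166 were called in no other line, with estimates between -0.15 and 0.17. Since the difference test passed for none of the 7, their changes were not shown to differ from the mean of the other lines.

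**Figure D4:**
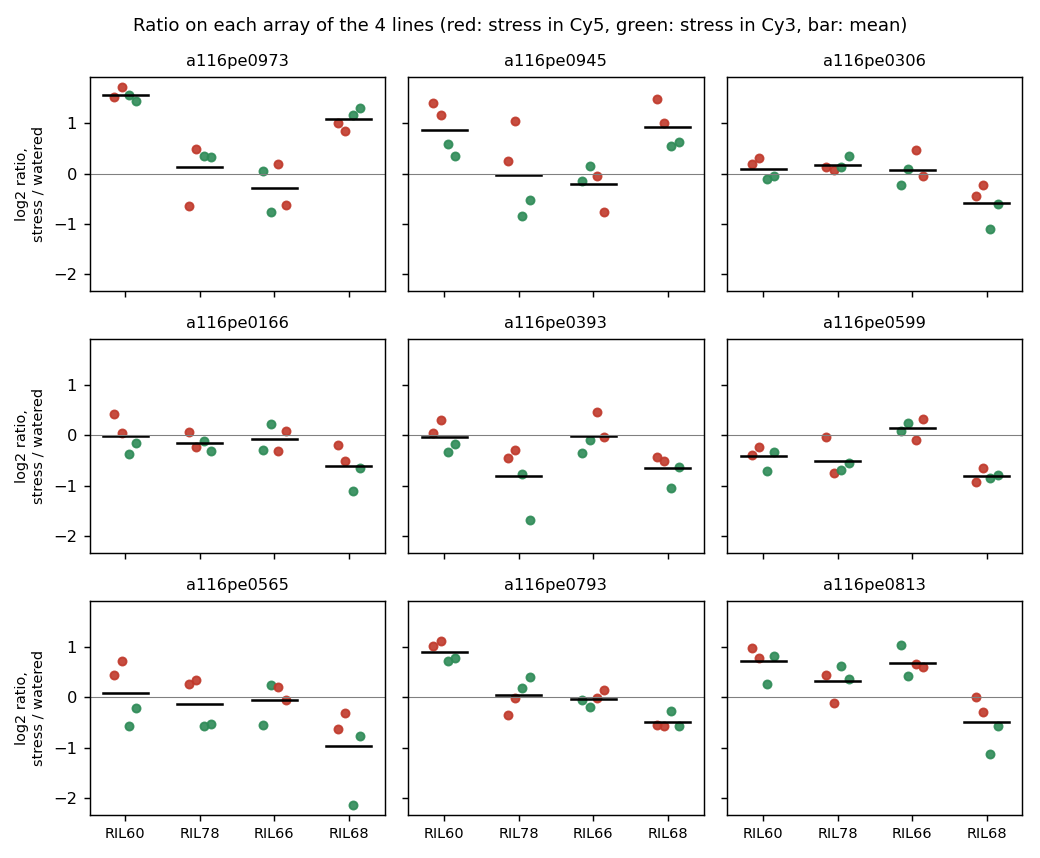
Log2 ratio of stress over well watered kernels on each array of the 4 lines, for the 7 probes called in RIL68 and for a116pe0793 and a116pe0813, with colour for the dye of the stressed sample and a bar at the mean of the 4 arrays. In RIL68 a116pe0793 and a116pe0813 have means of -0.49 and -0.50, while a116pe0793 is near 0.91 in RIL60 and a116pe0813 is above 0 on average in the other 3 lines.

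Read the other way, the probes that responded in other lines were looked up in RIL68. Limma called 29 probes in RIL60 (2.9%), 75 in RIL78 (7.5%) and 26 in RIL66 (2.6%). Of the 29, 18 had the same sign in RIL68 and 6 had it on all 4 arrays, and the median RIL68 estimate in the direction of the call was 0.0557. Of the 75, 53 had the same sign and 21 on all 4 arrays, with a median of 0.109. Of the 26, 16 had the same sign and 4 on all 4 arrays, with a median of 0.0869. Over all 1000 probes the same sign was found for 557, 545 and 548, and on all 4 arrays for 121, 118 and 102. The medians over all probes were 0.0267, 0.0233 and 0.0183. In their own line the median absolute sizes were 0.716, 0.605 and 0.871. The probes were chosen by their call in that line, which raises their size there. The medians in RIL68 keep the sign and these do not, so no conclusion is drawn from the gap. RIL60 and RIL78 each shared 2 calls with RIL68, and RIL66 shared 0. All lines came from 1 fit with a common spread and dye term, and no test was made of these shares.

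The 6 brightest probes of the line were near 0. Their estimates were at most 0.0791 in size (a116pe0382), and the SDs between arrays were 0.082 to 0.178. Saturation limited part of these values: all 8 spots of a116pe0894 exceeded 60000 intensity units, close to the scanner maximum, in at least 1 channel, and so did 4 spots of a116pe0986 and 1 of a116pe0575. Probes a116pe0382, a116pe0014 and a116pe0985 stayed under that value.

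Among probes above background in at least 1 channel on every array, the widest ranges after a116pe0012 and a116pe0026 followed the dye or replicate 3. Probe a116pe0708 read -1.14 and -0.51 with stress in Cy5 and 1.61 and 1.51 with stress in Cy3, so the orientations did not overlap and the estimate was 0.37 (SE 0.417, limma's adjusted p = 0.796). Probe a116pe0302 read 0.05, 0.09, -2.11 and -0.64 (limma's adjusted p = 0.137), and a116pe0533 read -0.23, -0.14, 1.98 and 0.65 (0.485). Probe a116pe0234 read 0.39, 0.32, -1.69 and -0.18 (0.603). All 4 changed sign between orientations.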

How the data were processed

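Poly(A) RNA of stressed and well watered maize kernels was compared on 2-colour arrays, 4 for RIL68 and 12 for the other 3 lines. Slides were read by the authors on a ScanArray scanner, per the file headers, and for each spot and channel they deposited the linear intensity and, not subtracted from it, the local background. The authors also deposited log2 ratios with 2000 values per array, and how these were made was not given in the sources used here. The rows were matched to spots by position on the slide and sorted probe name. The match was checked by correlation with the ratios computed here, at 0.929 to 0.961 for RIL68. It places their direction at stress over well watered and their medians at 0, while their scale is unknown, with slopes from 0.456 to 0.956 on the 4 arrays. They served as an alternative.

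Spots with the authors' exclusion mark were left out (3, 8, 21 and 10 on the RIL68 arrays). Intensities were corrected with normexp (offset 50) and normalised by loess within each array, with 48 control spots and excluded spots at weight 0. Because loess centres every array on its own bulk of probes, a change common to all of them would be removed. Each probe's 2 spots were averaged, and signs were turned to stress over well watered by the labelled dyes, which the headers matched. Levels per channel came from Aquantile scaling. Spots more than 2 SDs of the local background above it were taken as above background. limma 3.58.1 (lmFit and eBayes, R 4.3.3) was fitted to 16 arrays with 1 coefficient per line and a dye term, with Benjamini-Hochberg adjustment over 1000 probes and a threshold of 0.05. The code was tested on simulated data. With 4 arrays per line, the array number and the signal strength limit the precision. Figures were drawn with matplotlib.

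Named were all probes called in RIL68 or in its difference from the other lines, the 8 next in each direction of 1 sign on all arrays, and the 6 brightest and 6 widest in range. Others are marked where they appear. The line, the probe lists and the tests were chosen with earlier results of these data known. Alternatives covered background correction, normalisation, scaling, the deposited values, dim probes, excluded spots, the dye term, header day, replicate number, array weights, the threshold and each array left out. None of the probe IDs was in a table of 49888 maize genes, so gene names and sequences were not used here.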

Additional observations from a re-analysis of the deposited data

Results flagged for a closer look

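Within the 4 arrays of RIL68, 41 sets of values were tested for 1 array that lay far from the rest, and 4 sets passed. The sets were the named probes and several array measures. Chance passes this test in about 1 of 20 sets that were not chosen by their values. The named probes were chosen by values on these arrays, a116pe0012 and a116pe0026 by their range, so that rate does not hold for them. Replicate 2 read 3.62 for a116pe0012, where the others lay between -1.49 and -0.853, and 3.71 for a116pe0026, where the others lay between -0.771 and -0.709. Replicate 3 read -0.28 for a116pe0793, where the others lay between -0.577 and -0.542. The median Cy3 background of replicate 3 was 2273 intensity units, where the others lay between 505.9 and 796.3.

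A test of the difference between lines also singled out a pair of probes. The response of a116pe0813 was -1.07 in RIL68 minus the mean of the other 3 lines, and that of a116pe0793 was -0.801, each with a limma adjusted p of 0.0159.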

How the results depend on the processing

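The count of 7 called probes in RIL68 moved with the settings. It was 4 with no background correction, 3 with a normexp offset of 16, 2 with no dye term, 1 with the RIL68 arrays fitted alone, 12 with median centring (2 higher, 10 lower), 19 with the spread of the arrays scaled (7 higher, 12 lower) and 16 with array weights (3 higher, 13 lower). It was 18 at an adjusted p under 0.1 and 1 where a change of 2-fold was also asked. With settings added after seeing the data it was 4 among the 76 probes brighter than the rat control spots and 1 without replicates 2 and 3. Leaving out 1 of the 16 arrays gave 3 to 8, with 3 without replicate 1 or 3 of RIL68, replicate 1, 2 or 4 of RIL60, or replicate 1 of RIL78. With the replicate number as a replicate block 4 probes were called, all among the 7. No pairing by number was seen in the ratios. Deviations from the line and dye terms correlated at -0.0837 on average between RIL68 arrays and same-numbered arrays of other lines (range -0.288 to 0.158, 12 pairs). Of the 4 RIL68 arrays, 0 correlated best with their own number. These correlations cannot show whether arrays of 1 number shared a field block. Plain subtraction, print-tip loess, the deposited ratios, dim probes left out, excluded spots kept, an own dye effect and the header day as a random block gave 5 to 10. No called probe changed sign in any setting that held it. Each had 1 sign on all 4 RIL68 arrays, and several settings kept its estimate unchanged. This outcome was thus largely fixed in advance and adds no support.

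The count of 2 differences from the other lines was 4 with plain subtraction, 6 with print-tip loess, 5 with scaling, 5 with the deposited ratios, 9 with array weights, 1 among the 76 probes, 4 at an adjusted p under 0.1 and 1 with a 2-fold minimum. It was 0 to 4 with 1 array left out, 0 without replicate 4 of RIL68, 1 without its replicate 1 or 3, and 4 without replicate 1 of RIL78 or replicate 4 of RIL66. With the replicate block it was 3. With no background correction, and without replicates 2 and 3 of RIL68, it was 2 each time, but 0 of these were a116pe0793 or a116pe0813.

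The sign of a116pe0012 turned to -1.04 without replicate 2 of RIL68, and without any 1 array of RIL68 its estimate ran from -1.04 to 0.59. With the deposited ratios, which are blank for it on replicate 2, it was -0.81. Apart from fewer arrays or probes in a fit, the cause of these moves was not tested. On the RIL68 arrays 38.3% to 60.5% of probe spots were above background, within the 30.3% to 76.3% of the arrays of the other lines.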
